A study of Mus musculus with 12 samples.

Results

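Serine synthesis and the folate cycle were followed through 8 mouse genes, namely Phgdh, Psat1, Psph, Shmt1, Shmt2, Mthfd1, Mthfd1l and Mthfd2. They were chosen by name, and every probe set annotated to 1 of them alone was taken, which gave 21 probe sets. They are 8 of the 18193 genes that the array names by a single symbol. All 8 passed the filter on dim probe sets and are among the 12190 genes tested. One Shmt1 probe set did not pass, which left 20, and 2 further Phgdh probe sets that are also annotated to predicted genes were left out.

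The RNA came from follicular B cells of the spleen, sorted as B220+ AA4.1- CD23hi CD21int cells from male 129SvEv mice at 8 weeks of age. The mice were labelled Zfx cko or wild type, and Zfx encodes a zinc finger transcription factor. Cells of both genotypes were kept for 0, 2 or 12 h in medium with 10 µg/mL of anti-IgM, which engages their antigen receptor. The 6 groups were thus cko at 0 h, 2 h and 12 h and wild type at 0 h, 2 h and 12 h, with 2 arrays each. The sources used here do not give the deleting agent, the allele or the number of mice behind a sample. The labels state that each RNA was hybridized in duplicate, but not whether a pair stems from separate mice or cultures. A p-value here therefore reflects the spread of the arrays alone, which may be technical, and their number limits precision. The words cko and wild type stand for arrays so labelled.

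Cells make serine from a glycolytic intermediate in 3 steps. PHGDH oxidises the intermediate, PSAT1 moves an amino group onto it from glutamate, and PSPH removes the phosphate. SHMT enzymes then split serine into glycine and a carbon unit that is carried by tetrahydrofolate, SHMT2 in mitochondria and SHMT1 in the cytosol. In mitochondria MTHFD2 oxidises the unit and MTHFD1L releases it as formate, which MTHFD1 loads back onto folate in the cytosol. The units feed the synthesis of purines and thymidylate, and lymphocytes are known to draw on this pathway when they are activated. The transcription factors ATF4 and MYC are known regulators of several of these genes.

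The promoter windows of Mthfd2, Psat1 and Mthfd1 are shown because Mthfd2 and Psat1 had the most stable genotype differences below and Mthfd1 held the single motif match. Each window runs from 250 bases before to 50 bases after an annotated start, in lower case and 5′ to 3′ along the gene's strand, from RefSeq on GRCm38.p6. Capitals mark the match, and the windows lie at chr6:83317555-83317854 (minus strand), chr19:15925010-15925309 (minus strand) and chr12:76254982-76255281 (plus strand).
Mthfd2: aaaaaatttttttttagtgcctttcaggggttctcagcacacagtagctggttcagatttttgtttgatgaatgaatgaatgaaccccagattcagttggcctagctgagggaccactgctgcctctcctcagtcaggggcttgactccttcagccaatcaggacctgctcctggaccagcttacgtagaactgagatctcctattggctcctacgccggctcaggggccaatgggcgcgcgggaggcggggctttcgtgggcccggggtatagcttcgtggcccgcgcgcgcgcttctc
Psat1: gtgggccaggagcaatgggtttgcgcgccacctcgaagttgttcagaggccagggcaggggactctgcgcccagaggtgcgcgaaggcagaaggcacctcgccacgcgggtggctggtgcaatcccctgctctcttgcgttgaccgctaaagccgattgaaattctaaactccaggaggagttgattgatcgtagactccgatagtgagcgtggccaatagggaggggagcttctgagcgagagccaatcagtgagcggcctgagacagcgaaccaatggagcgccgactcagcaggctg
Mthfd1: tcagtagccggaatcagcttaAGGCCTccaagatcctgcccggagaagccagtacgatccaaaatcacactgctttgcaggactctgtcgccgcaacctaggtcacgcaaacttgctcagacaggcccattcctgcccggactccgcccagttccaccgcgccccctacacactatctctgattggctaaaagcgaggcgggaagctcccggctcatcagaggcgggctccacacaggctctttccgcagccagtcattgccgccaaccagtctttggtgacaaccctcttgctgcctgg
The Mthfd2 and Mthfd1 windows lie inside the annotated spans of their genes, which begin farther upstream. All 8 genes matched the RefSeq table, with 9 windows, since Psat1 has a pair. Both strands were searched for 3 motifs. The composite element of ATF4 and C/EBP, TGATGNAA, was found in 0 of the 9 windows and in 3.97% of all 32851 windows. The E-box CACGTG was found in 0 of 9, and in 7.15% of all. The core of the ZFX motif, AGGCCT, was found in 1 of 9 and in 10.3% of all. The match in the Mthfd1 window is 229 bases upstream of the start used for that window, and so within the annotated span of Mthfd1. With a single match in the 9 windows, no matches overlapped. A match is a description of the letters, and a missing match says only that they are not in this window.

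All 8 B cell markers analysed here lay above the filter. Their summed signal was 83090 to 83930 in cko and 69220 to 70720 in wild type at 0 h, 31290 to 31740 and 34000 to 35270 at 2 h, and 45160 to 45760 and 38430 to 39850 at 12 h. The summed signal of the 4 plasma cell markers, all above the filter, was 8585 to 9016 in cko and 8233 to 8405 in wild type at 0 h, 8542 to 8893 and 9761 to 10320 at 2 h, and 8065 to 8414 and 4771 to 5081 at 12 h. Markers of other cells also differed between the genotypes. The summed signal of 11 of 12 listed myeloid markers, 10 of them above the filter and none with a group mean of 0, was 9967 to 10020 in cko and 21690 to 22480 in wild type at 0 h. At 2 h it was 2722 to 3016 in cko and 16130 to 16210 in wild type, and at 12 h it was 3850 to 4011 in cko and 7961 to 8841 in wild type. Csf1r (1591 in cko against 829 in wild type), Mpo (66.8 against 57.6) and Itgam (11.6 against 2.13) had higher means in cko at 0 h. All other markers summed there had lower means, S100a8 at 4594 against 11980. Means higher in cko were those of Elane and Mpo at 2 h and of Camp (907.5 against 270.2), Adgre1 and Itgam at 12 h. The summed signal of 3 of 6 erythroid markers was 52.2 to 227 over the cko arrays and 362 to 1284 over the wild-type arrays. Alas2 and Slc4a1 had lower means in cko at each time, and Hba-a1 had a higher one at 0 h (19.2 against 7.48). The summed signal of 8 of 11 T and NK cell markers was 2518 to 2773 in cko and 2878 to 2966 in wild type at 0 h, 1170 to 1212 and 1133 to 1149 at 2 h, and 785 to 842 and 505 to 542 at 12 h. The part of these cells in the results below was not tested. In bulk RNA, fewer cells of a type and less RNA per cell cannot be told apart.

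Zfx was read by 4 probe sets. The brightest gave signals of 2189 and 2618 in cko against 983 and 1041 in wild type at 0 h, and the other 3 ranged from 1.18 to 179. The sources used here do not say where these probe sets lie relative to the deleted part, so they do not check the labels. By the control probe sets the arrays fell on 2 sides, with 6 arrays each. The ratio of 5′ to 3′ actin signal was 8.41 to 19.1% on the cko 2 h, cko 12 h and wild-type 2 h arrays, and 1.80 to 3.33% on the cko 0 h, wild-type 0 h and wild-type 12 h arrays. Within 1 side of this division lie the comparisons of the genotypes at 0 h and 2 h, of 12 h with 0 h in wild type and of 12 h with 2 h in cko. The other time comparisons and the genotype comparison at 12 h cross it. Groups on the same side still differed in this ratio. On the high side it was 10.6 and 10.8% in cko at 2 h, 19.1 and 19.0% in cko at 12 h, and 8.51 and 8.41% in wild type at 2 h. On the low side it was 1.99 and 1.80% in cko at 0 h, 3.27 and 3.33% in wild type at 0 h, and 2.11 and 2.27% in wild type at 12 h.

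In the account below a level is the deposited linear signal, and each gene is read on its brightest probe set. A difference is on the log2(signal + 16) scale, cko minus wild type or later minus earlier, and is given ± SE with n = 2 arrays per group. A gene was called at a Benjamini-Hochberg adjusted p under 0.05 over all 12190 genes. Levels of different genes are not set against each other, and where a gene has several probe sets their ratio is followed only from array to array.

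Phgdh encodes the entry enzyme of serine synthesis and lies at chr3:98313171-98339969. Its signal in cko was 3684 and 3489 at 0 h, 2224 and 2344 at 2 h, and 4963 and 5467 at 12 h. In wild type it was 3149 and 3251 at 0 h, 1544 and 1451 at 2 h, and 6044 and 6418 at 12 h. Every cko array was above both wild-type arrays at 0 h and 2 h, and every cko array was below both at 12 h. The 6 groups were all separate, with wild type at 2 h the lowest and wild type at 12 h the highest, 4.13-fold apart.

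Psat1, at chr19:15905123-15925059, encodes the aminotransferase of the pathway. The cko arrays read 2808 and 2878 at 0 h, 5474 and 5386 at 2 h, and 5712 and 5729 at 12 h. The wild-type arrays read 1342 and 1584 at 0 h, 2730 and 2597 at 2 h, and 4227 and 4169 at 12 h. On this probe set resting cko cells thus gave a signal slightly above that of wild-type cells after 2 h of anti-IgM. On the other Psat1 probe set, 1451064_a_at, they lay below, at 458 and 482 against 986 and 982. These 2 groups also lie on different sides of the control-probe division. No groups overlapped, and the highest group, cko at 12 h, was 3.89-fold above the lowest, wild type at 0 h.

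Psph, at chr5:129765558-129787443, encodes the phosphatase that completes serine synthesis. On cko arrays it gave signals of 131 and 117 at 0 h, 199 and 327 at 2 h, and 776 and 894 at 12 h. On wild-type arrays it gave 96.1 and 161 at 0 h, 165 and 190 at 2 h, and 145 and 185 at 12 h. The 12 h cko arrays stood above all others, at 6.07-fold over the lowest group. The cko 0 h, wild-type 0 h, wild-type 12 h and wild-type 2 h groups overlapped their neighbours in that order.

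Shmt1, at chr11:60788897-60811265, encodes the cytosolic serine hydroxymethyltransferase. Signals in cko were 97.3 and 76.4 at 0 h, 1600 and 1376 at 2 h, and 492 and 445 at 12 h. Signals in wild type were 63.0 and 7.03 at 0 h, 718 and 719 at 2 h, and 211 and 209 at 12 h. On this probe set it was highest at 2 h in both genotypes, and at each time both cko arrays lay above both wild-type arrays. On the other tested Shmt1 probe sets the wild-type mean was higher at 12 h than at 2 h. It was 165.1 against 124.7 on 1425177_at and 254.1 against 214.5 on 1425178_s_at. The wild-type 0 h arrays lay far apart, and differences against that group moved with either of them.

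Shmt2, at chr10:127517123-127522444, encodes the mitochondrial form. Its signal in cko was 2368 and 2130 at 0 h, 2644 and 2757 at 2 h, and 3566 and 3220 at 12 h. In wild type it was 1632 and 1561 at 0 h, 2164 and 2353 at 2 h, and 4421 and 4325 at 12 h. The lowest group was wild type at 0 h and the highest was wild type at 12 h, 2.72-fold apart. The cko 0 h and wild-type 2 h arrays overlapped, and no other neighbours in the order did.

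Mthfd2, at chr6:83305704-83326011, encodes the mitochondrial dehydrogenase and cyclohydrolase. Its signal in cko was 1028 and 1065 at 0 h, 6316 and 7065 at 2 h, and 4831 and 4740 at 12 h. In wild type it was 324 and 335 at 0 h, 3903 and 3701 at 2 h, and 1330 and 1639 at 12 h. No groups overlapped, cko at 2 h was the highest, and it was 19.4-fold above wild type at 0 h. At 12 h the cko arrays stayed above both genotypes' 0 h arrays and above the wild-type 2 h arrays.

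Mthfd1l, at chr10:3972892-4167081, encodes the mitochondrial formate-releasing synthetase. Its signal in cko was 544 and 469 at 0 h, 369 and 395 at 2 h, and 630 and 635 at 12 h. In wild type it was 392 and 360 at 0 h, 331 and 301 at 2 h, and 377 and 343 at 12 h. It had the narrowest spread of the 8 genes, 1.96-fold between cko at 12 h and wild type at 2 h. The wild-type 0 h arrays overlapped those of wild type at 12 h and of cko at 2 h.

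Mthfd1, at chr12:76254406-76319820, encodes the cytosolic enzyme with 3 activities that takes formate back into the cycle. The cko signals were 1863 and 2172 at 0 h, 2265 and 2649 at 2 h, and 4300 and 3988 at 12 h. The wild-type signals were 1120 and 1469 at 0 h, 2531 and 2350 at 2 h, and 3699 and 4082 at 12 h. The genotypes were separate at 0 h and overlapped at 2 h and at 12 h. The groups spanned 3.20-fold.

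**Figure D1:**
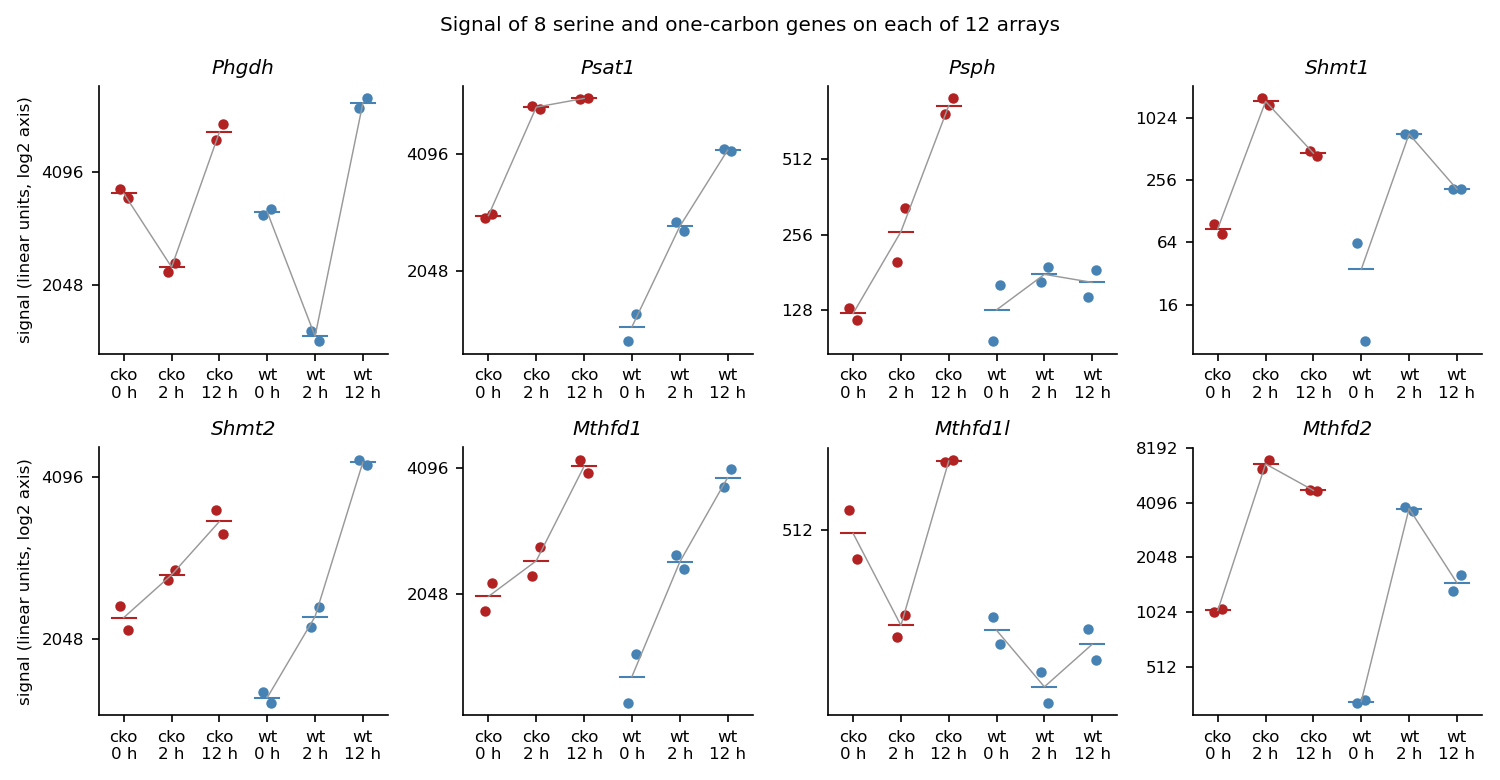
Signal of the 8 genes on each array, on the brightest probe set (vertical axis, linear units on a log2 axis), by genotype and hours with anti-IgM (horizontal axis: 0, 2 and 12 h), cko in red left of wild type in blue; points are arrays, short lines are group means and grey lines join the means. Mthfd2 reached 6316 and 7065 in cko at 2 h, against 3903 and 3701 in wild type, and Psph reached 776 and 894 in cko at 12 h, against 145 and 185 in wild type. Axes differ between panels.

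Resting cko cells had more signal for most of the pathway. At 0 h, 6 of the 8 genes were higher in cko and 0 were lower, against 16.3% of all genes called higher, 16% called lower and 32.3% called in either direction. Mthfd2 (1.62 ± 0.09, adjusted p = 8.3e-08), Psat1 (0.96 ± 0.07, adjusted p = 6.3e-07) and Shmt1 (1.26 ± 0.37, adjusted p = 0.019) were higher by the most. Mthfd1 (0.64 ± 0.12), Shmt2 (0.49 ± 0.07) and Mthfd1l (0.41 ± 0.11) were higher as well. The difference was 0.16 ± 0.07 for Phgdh and -0.01 ± 0.24 for Psph, and neither was called. In 7 of the 8 the arrays of the genotypes did not overlap, against 64.3% of all genes. The median difference was 0.57 over the 8 genes and 0.02 over all genes.

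At 0 h the call on Shmt1 was lost without cko 0 h replicate 1 (1.11) or wild-type 0 h replicate 2 (0.37), and the difference was 2.15 without wild-type 0 h replicate 1. The call on Mthfd1l was lost without cko 0 h replicate 1 (0.31) or wild-type 0 h replicate 2 (0.35) and under median scaling (0.31), and averaging each gene's probe sets ended the calls on Mthfd1 (0.25) and Shmt2 (0.06). Fits without a trend or with the compared groups alone ended that on Shmt1 (1.26 in both). Phgdh was called higher with its probe sets averaged (1.42, adjusted p = 1.3e-06) and with the average taken without 1454714_x_at, a probe set described below (0.23, adjusted p = 0.043). An additive fit had the control-probe division as a term, a single genotype effect for the 3 times and time effects shared by the genotypes. In it Phgdh was called (0.38, adjusted p = 0.0057) and Mthfd1 was not (0.33, adjusted p = 0.08). It changes the term and the genotype effect at once, and the 0 h arrays all lie on 1 side of the division.

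After 2 h of anti-IgM, 4 of the 8 genes were higher in cko and 0 were lower, against 12.8% of all genes called higher, 15.7% called lower and 28.5% in either direction. Psat1 (1.02 ± 0.07, adjusted p = 2.9e-07), Mthfd2 (0.81 ± 0.09, adjusted p = 2e-05), Phgdh (0.60 ± 0.07, adjusted p = 1.9e-05) and Shmt2 (0.26 ± 0.07, adjusted p = 0.017) were those 4. Shmt1 gave 1.03 ± 0.37 (adjusted p = 0.053) and was not called, but the call depended on the setting. It was called without either wild-type 0 h array, under quantile normalization and median scaling, with a pseudocount of 64, a filter at the 60th percentile, the compared groups alone, the replicate number as a block, averaged probe sets and the additive fit (adjusted p = 6.8e-05 to 0.047). It was not called with a pseudocount of 1, without a filter, without a trend or without any 1 of the other 10 arrays (adjusted p = 0.063 to 0.25). Psph (0.49 ± 0.24), Mthfd1l (0.26 ± 0.11) and Mthfd1 (0.01 ± 0.12) were not called. Arrays did not overlap for 7 of the 8 genes, against 63.6% of all genes, and the median difference was 0.55, against -0.02 over all genes. The call on Shmt2 was lost without cko 2 h replicate 2 (0.23) or wild-type 2 h replicate 1 (0.20) and in a fit without a trend (0.26). Psph was called without cko 2 h replicate 1 (0.83), and Mthfd1l in the additive fit (0.34).

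After 12 h the genes went in different directions between the genotypes. Of the 8, 5 were higher in cko and 2 were lower, against 21.4% of all genes called higher, 29.9% called lower and 51.3% in either direction. Psph showed the largest difference (2.24 ± 0.24, adjusted p = 2.3e-06), followed by Mthfd2 (1.69 ± 0.09, adjusted p = 3e-09) and Shmt1 (1.10 ± 0.37, adjusted p = 0.023). Mthfd1l (0.79 ± 0.11) and Psat1 (0.45 ± 0.07) were also higher in cko. Shmt2 (-0.37 ± 0.07, adjusted p = 0.00073) and Phgdh (-0.26 ± 0.07, adjusted p = 0.0047) were lower in cko, and Mthfd1 (0.09 ± 0.12) was not called. Arrays did not overlap for 7 of the 8, against 75.8% of all genes, and the median difference was 0.62, against -0.17 over all genes.

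This comparison crosses the division of the control probe sets, with actin at 19.0 and 19.1% in cko and 2.11 and 2.27% in wild type. Under median scaling 6 genes were higher and 0 lower, Phgdh turned to 0.06, Shmt2 was no longer called (-0.05) and Mthfd1 was called higher (0.41). In the additive fit with the division as a term Psph was not called (0.24), and Phgdh (0.38) and Shmt2 (0.37) were higher in cko. The call on Phgdh was lost without cko 12 h replicate 1 (-0.19) and under quantile normalization (-0.10). Mthfd1 was called with averaged probe sets (0.28). The call on Shmt1 was lost without either array of either genotype at 12 h (1.03 to 1.17), with a pseudocount of 1 (1.15) and without a trend (1.10).

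**Figure D2:**
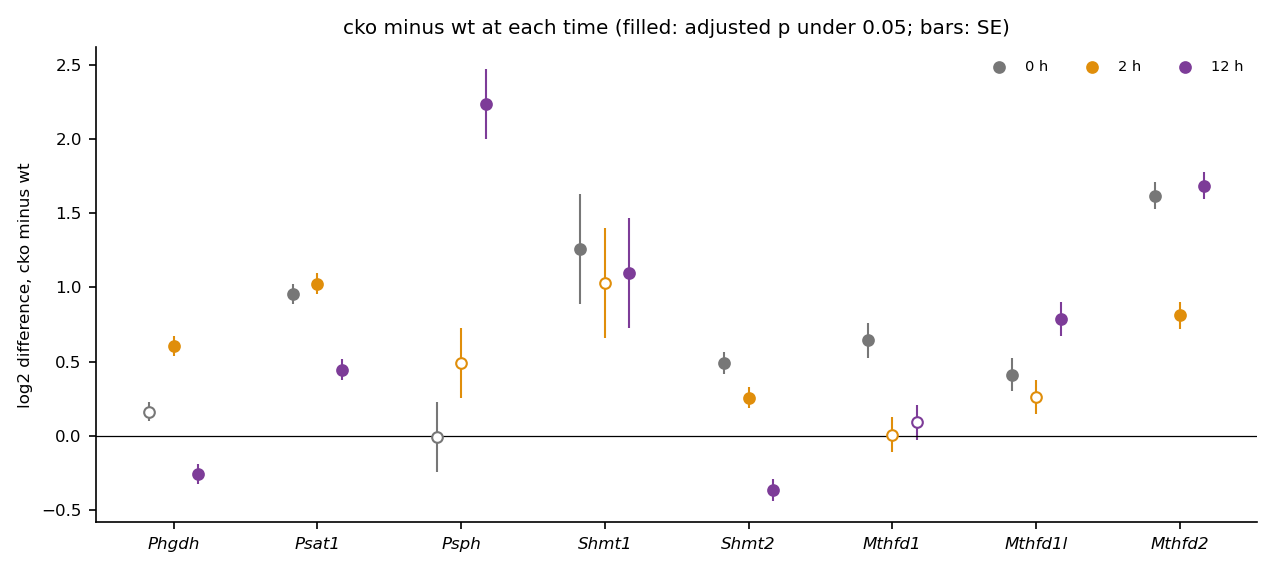
Difference between cko and wild type on the log2(signal + 16) scale (vertical axis) for each of the 8 genes (horizontal axis) at 0 h in grey, 2 h in orange and 12 h in purple; bars are the SE of the fit, filled points were called and open points were not. Psat1 and Mthfd2 were called higher in cko at all 3 times, at 0.45 to 1.02 and 0.81 to 1.69.

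Mthfd2 and Psat1 were higher in cko at all 3 times, in the analysis given here and under each alternative tried, including each array left out in turn. Their arrays did not overlap at any of the 3 times. The other 6 genes were each not called, lost their call or changed direction at 1 or more of the times. Over all 88 differences of the 8 genes in 11 comparisons, 65 were called and 38 of these kept their call and direction under every alternative that gave a value.

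Most of the folate enzymes were higher after 2 h with anti-IgM than at 0 h in wild-type cells. Cells kept for 2 or 12 h without anti-IgM were not analysed here, so anti-IgM and time in culture cannot be told apart. Of the 8 genes, 5 rose and 1 fell, against 23.5% of all genes called higher, 36.2% called lower and 59.7% in either direction. Shmt1 (4.11 ± 0.37, adjusted p = 2.7e-07) and Mthfd2 (3.46 ± 0.09, adjusted p = 1.2e-12) rose the most. Mthfd1 (0.92 ± 0.12), Psat1 (0.86 ± 0.07) and Shmt2 (0.50 ± 0.07) rose less. Phgdh fell (-1.09 ± 0.07, adjusted p = 4e-09). Its probe sets 1426658_x_at (-0.56 ± 0.09) and 1456584_x_at (-0.76 ± 0.13) also fell, and 1454714_x_at (-0.01 ± 0.20) was not called. Psph (0.46 ± 0.24) and Mthfd1l (-0.24 ± 0.11) were not called. The median over the 8 was 0.68, against -0.24 over all genes. The Shmt1 value was 4.99 without wild-type 0 h replicate 1 and 3.22 without replicate 2, and Psph was called without wild-type 0 h replicate 2 (0.79).

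At 2 h in cko, 5 genes rose and 2 fell, against 23.8% called higher, 39.2% called lower and 63% in either direction over all genes. Shmt1 (3.87 ± 0.37) and Mthfd2 (2.66 ± 0.09, adjusted p = 7.6e-12) again rose the most. Shmt1 1425177_at rose by 1.23 ± 0.22 and 1425178_s_at by 1.30 ± 0.17. Psph (0.96 ± 0.24, adjusted p = 0.0028), Psat1 (0.93 ± 0.07) and Shmt2 (0.26 ± 0.07) also rose. Phgdh (-0.65 ± 0.07) and Mthfd1l (-0.39 ± 0.11) fell, and Mthfd1 (0.28 ± 0.12, adjusted p = 0.05) was not called. The other Phgdh probe sets disagreed. Of these, 1456584_x_at fell (-0.64 ± 0.13), 1426658_x_at rose (0.33 ± 0.09) and 1454714_x_at (-0.48 ± 0.20) was not called. The median over the 8 was 0.61, against -0.32 over all genes. Under median scaling 6 rose and 1 fell, and Mthfd1l gave 0.01.

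Both 2 h comparisons cross the control-probe division, and in the additive fit with it as a term, where both genotypes share the time effect, the call on the fall of Phgdh was lost (-0.23) and Psph gave -1.29. In cko the call on Psph was lost without 2 h replicate 2 (0.62), that on Shmt2 without 0 h replicate 2 (0.19), and that on Mthfd1l without 0 h replicate 1 (-0.29) or 2 h replicate 1 (-0.34). Mthfd1 in cko was called without 0 h replicate 2 (0.39) or 2 h replicate 1 (0.39).

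By 12 h in wild type 6 of the 8 genes had risen and 0 had fallen, against 24.8% called higher, 23.1% called lower and 47.9% in either direction over all genes. This comparison lies within 1 side of the control-probe division. Shmt1 (2.41 ± 0.37), Mthfd2 (2.11 ± 0.09, adjusted p = 2.6e-10), Mthfd1 (1.59 ± 0.12), Psat1 (1.52 ± 0.07), Shmt2 (1.45 ± 0.07) and Phgdh (0.96 ± 0.07, adjusted p = 2.8e-08) rose. Psph (0.35 ± 0.24) and Mthfd1l (-0.06 ± 0.11) were not called. The other Mthfd2 probe set, 1419254_at (-0.12 ± 0.12), did not show the rise and was not called. Nor were Phgdh 1454714_x_at (0.47 ± 0.20), Shmt2 1434204_x_at (0.66 ± 0.35) and Mthfd1 1436704_x_at (0.31 ± 0.22). The median over the 8 was 1.48, against 0.03 over all genes. The Shmt1 value was 1.52 without wild-type 0 h replicate 2 and 3.29 without replicate 1, and Psph was called without replicate 2 of that group (0.68).

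By 12 h in cko all 8 had risen, against 25.9% called higher, 33.1% called lower and 58.9% in either direction over all genes. Psph rose the most (2.60 ± 0.24, adjusted p = 3.2e-07), followed by Shmt1 (2.24 ± 0.37), Mthfd2 (2.18 ± 0.09), Mthfd1 (1.04 ± 0.12) and Psat1 (1.01 ± 0.07). Shmt2 (0.59 ± 0.07), Phgdh (0.54 ± 0.07) and Mthfd1l (0.32 ± 0.11) rose by less. The median over the 8 was 1.02, against -0.20 over all genes. The 2 h and the 12 h comparisons of a genotype share their 0 h arrays. The call on Mthfd1l was lost without cko 0 h replicate 2 (0.21) or either cko 12 h array (0.32 and 0.31). This comparison crosses the division. In the additive fit, where both genotypes share the time effect, the rise of Psph was not called (0.48) and Mthfd1l gave -0.10.

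**Figure D3:**
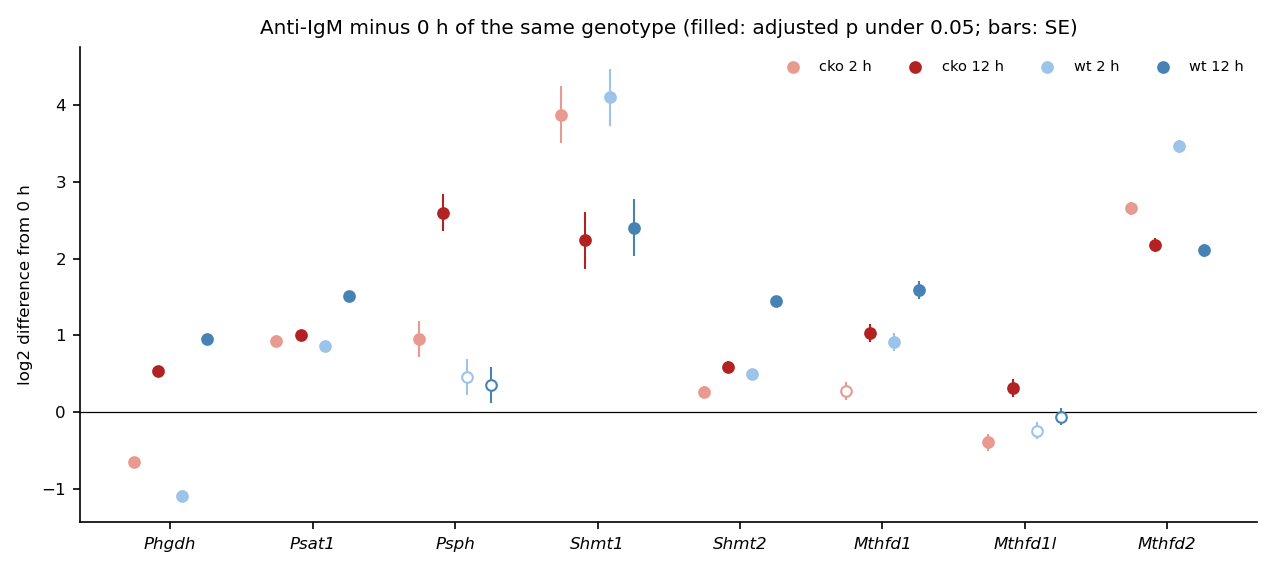
Differences between 2 h and 0 h and between 12 h and 0 h on the log2(signal + 16) scale (vertical axis) for the 8 genes (horizontal axis), cko in red left of wild type in blue, 2 h in the lighter and 12 h in the darker shade; bars are the SE of the fit, filled points were called and open points were not. The brightest Phgdh probe set fell at 2 h in both genotypes (-0.65 in cko and -1.09 in wild type) and rose by 12 h in both (0.54 and 0.96). Another, 1426658_x_at, rose at 2 h in cko (0.33).

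Between 2 h and 12 h some of the genes rose and others fell. In cko 5 genes rose and 2 fell, against 30.2% called higher, 18.7% called lower and 49% in either direction over all genes. Psph (1.65 ± 0.24), Phgdh (1.18 ± 0.07, adjusted p = 4.1e-09), Mthfd1 (0.75 ± 0.12), Mthfd1l (0.71 ± 0.11) and Shmt2 (0.33 ± 0.07) rose. Shmt1 (-1.63 ± 0.37) and Mthfd2 (-0.48 ± 0.09, adjusted p = 0.00044) fell, and Psat1 (0.08 ± 0.07) was not called. Its other probe set, 1451064_a_at, fell (-0.405 ± 0.081). This comparison lies within 1 side of the control-probe division.

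In wild type 4 genes rose and 2 fell between 2 h and 12 h, against 35.3% called higher, 22% called lower and 57.3% in either direction. Phgdh (2.05 ± 0.07), Shmt2 (0.95 ± 0.07), Mthfd1 (0.67 ± 0.12) and Psat1 (0.65 ± 0.07) rose. Shmt1 (-1.70 ± 0.37) and Mthfd2 (-1.36 ± 0.09, adjusted p = 1.2e-08) fell. Shmt1 1425177_at (0.39 ± 0.22) and 1425178_s_at (0.22 ± 0.17) did not show this fall and were not called. Psat1 1451064_a_at fell (-0.62 ± 0.08), against the rise on the brightest Psat1 probe set. Psph (-0.10 ± 0.24) and Mthfd1l (0.18 ± 0.11) were not called. Here the division was crossed. In the additive fit, where both genotypes share the time effect, Psph (1.77) and Mthfd1l (0.67) rose and Psat1 (0.09) lost its call.

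The test of genotype by time asked whether the responses differed, as the cko response minus the wild-type response. At 2 h, 1 of the 8 genes was called higher and 2 lower, against 8.59% of all genes called higher, 11.8% called lower and 20.4% in either direction. Mthfd2 (-0.81 ± 0.13, adjusted p = 0.00055) and Mthfd1 (-0.64 ± 0.17, adjusted p = 0.015) rose by less in cko than in wild type, and for Phgdh the value was 0.44 ± 0.09 (adjusted p = 0.0045), a smaller fall in cko. Psat1 (0.07 ± 0.10), Shmt1 (-0.23 ± 0.52), Shmt2 (-0.23 ± 0.10), Mthfd1l (-0.15 ± 0.16) and Psph (0.50 ± 0.33) were not called. On other probe sets Psat1 1451064_a_at (0.97 ± 0.11) and Shmt1 1425178_s_at (0.75 ± 0.24) were called. Under median scaling 1 was called higher and 1 lower, with Mthfd1 no longer called (-0.51). The call on Mthfd1 was also lost without a trend (-0.64) and without cko 0 h replicate 2 (-0.53), cko 2 h replicate 1 (-0.53), wild-type 0 h replicate 1 (-0.44) or wild-type 2 h replicate 1 (-0.58). The Shmt1 value, called in each case, was 0.66 without wild-type 0 h replicate 2 and -1.12 without replicate 1.

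At 12 h, 1 gene was called higher and 4 lower, against 18.8% of all genes called higher, 24.4% called lower and 43.2% in either direction. Psph was the 1 higher (2.25 ± 0.33, adjusted p = 9.1e-05). Shmt2 (-0.86 ± 0.10, adjusted p = 1.4e-05), Mthfd1 (-0.55 ± 0.17), Psat1 (-0.51 ± 0.10) and Phgdh (-0.42 ± 0.09) rose by less in cko. Mthfd1l (0.38 ± 0.16), Mthfd2 (0.07 ± 0.13) and Shmt1 (-0.16 ± 0.52) were not called. On other probe sets Mthfd2 1419254_at gave 3.35 ± 0.17 and Shmt1 1425177_at gave -1.11 ± 0.31, and both were called. The median over the 8 was -0.29 and over all genes -0.17. Under median scaling, which moved the median of all genes to 0.20, 3 were called higher and 1 lower, Mthfd2 (0.50) and Mthfd1l (0.79) joined Psph, and Mthfd1 (-0.13), Psat1 (-0.08) and Phgdh (0.006) lost their calls. Under quantile normalization 1 was higher and 3 were lower, without Phgdh (-0.20).

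This comparison crosses the control-probe division. The call on Mthfd1 was lost without a trend (-0.55) and without cko 0 h replicate 2 (-0.44), cko 12 h replicate 2 (-0.50), wild-type 0 h replicate 1 (-0.36) or wild-type 12 h replicate 2 (-0.48). The Shmt1 value, called in each case, was 0.73 without wild-type 0 h replicate 2 and -1.05 without replicate 1. Mthfd1l was called without cko 0 h replicate 1 (0.48).

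Several genes were read by more than 1 probe set, and the probe sets did not always move together. Of the 20 tested, 11 were called higher in cko and 0 lower at 0 h, against 13.6% and 13.9% of all 21906 probe sets, and 11 higher and 0 lower at 2 h, against 10.1% and 11.5%. At 12 h 11 were higher and 3 lower, against 22.7% and 25.4%. The other Mthfd2 probe set, 1419254_at, was also higher in cko at each time, by 0.82 ± 0.12 at 0 h, 1.41 ± 0.12 at 2 h and 4.17 ± 0.12 at 12 h. Its signal at 12 h was 2240 and 2465 in cko and 101 and 132 in wild type, so the wild-type level at 12 h was close to that at 0 h (119 and 134). The Psat1 probe set 1451064_a_at was higher in cko by 0.61 ± 0.08, 1.58 ± 0.08 and 1.80 ± 0.08 at 0, 2 and 12 h. With the probe sets of a gene averaged, the 12 h difference was 2.93 for Mthfd2 and 1.12 for Psat1.

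The further probe sets of Shmt1, Shmt2 and Mthfd1 gave smaller or opposite differences at some times. Shmt1 1425177_at was higher in cko by 1.09 ± 0.22 at 0 h and 0.83 ± 0.22 at 2 h and gave -0.01 ± 0.22 at 12 h. Shmt1 1425178_s_at was higher in cko at 2 h (0.91 ± 0.17) and was not called at 0 h (0.16 ± 0.17) or 12 h (-0.07 ± 0.17). Neither thus showed the 12 h difference of 1.10 seen on the brightest Shmt1 probe set. Shmt2 1426423_at was higher in cko at 12 h (0.53 ± 0.16) and not called at 0 h (0.01 ± 0.16) or 2 h (0.35 ± 0.16), whereas Shmt2 1455985_x_at was lower at 12 h (-0.43 ± 0.17) and not called at 0 h (0.21 ± 0.17) or 2 h (0.04 ± 0.17). Shmt2 1434204_x_at, at -0.47, 0.91 and 0.35 (each ± 0.35) at 0, 2 and 12 h, was not called. Mthfd1 1415917_at was higher in cko at 12 h (1.15 ± 0.14) and not called at 0 h (0.37 ± 0.14) or 2 h (0.30 ± 0.14). Mthfd1 1436704_x_at, at -0.26, 0.31 and -0.40 (each ± 0.22), was not called.

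Opposite calls on probe sets of the same gene occurred for Phgdh and Shmt2 in the genotype comparison at 12 h. They occurred for Psat1 in the wild-type change between 2 h and 12 h and for Phgdh in the cko 2 h response. In the tests of genotype by time they occurred for Mthfd2 at 2 h (-0.81 and 0.59) and for Phgdh, Psat1 and Mthfd1 at 12 h. For Psat1 at 12 h the values were -0.51 ± 0.10 and 1.19 ± 0.11. For Mthfd1 they were -0.55 ± 0.17 and 0.79 ± 0.20. With the probe sets averaged, the genotype by 2 h values of Mthfd1 (-0.04), Mthfd2 (-0.11) and Phgdh (0.25) and the genotype by 12 h values of Mthfd1 (0.03), Phgdh (0.05) and Shmt2 (-0.04) were not called. In that setting Psat1 was called at 0.52 for genotype by 2 h and at 0.34 for genotype by 12 h, and Mthfd2 at 1.71 for genotype by 12 h. The averages also ended the calls on Shmt1 between genotypes at 12 h (0.34), on Shmt2 in wild type at 2 h (0.25) and in cko between 2 h and 12 h (0.28), and on Shmt1 (-0.36) and Psat1 (0.02) in wild type between 2 h and 12 h.

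Phgdh showed the widest disagreement. The probe set 1454714_x_at gave 2036 and 2047 in cko against 32.2 and 73.4 in wild type at 0 h. At 2 h it gave 1456 and 1468 in cko against 46.5 and 52.2 in wild type, and at 12 h 3598 and 3551 against 72.7 and 76.8. The ratio of mean signals was 38.7, 29.6 and 47.8, and the differences were 4.97 ± 0.20, 4.50 ± 0.20 and 5.31 ± 0.20. The other 3 probe sets differed between genotypes by -0.26 to 0.81. Among them 1426658_x_at gave -0.08 ± 0.09, 0.81 ± 0.09 and 0.80 ± 0.09 at 0, 2 and 12 h, and 1456584_x_at gave 0.62 ± 0.13, 0.73 ± 0.13 and 0.02 ± 0.13. Of 21906 tested probe sets, this was the single one at least 4 higher on the log2 scale in cko at all 3 times, and 0 were lower by as much, a threshold chosen after its values were seen. Probe sets with the ending _x_at can hybridise to other sequences, and the cause of the difference was not tested.

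**Figure D4:**
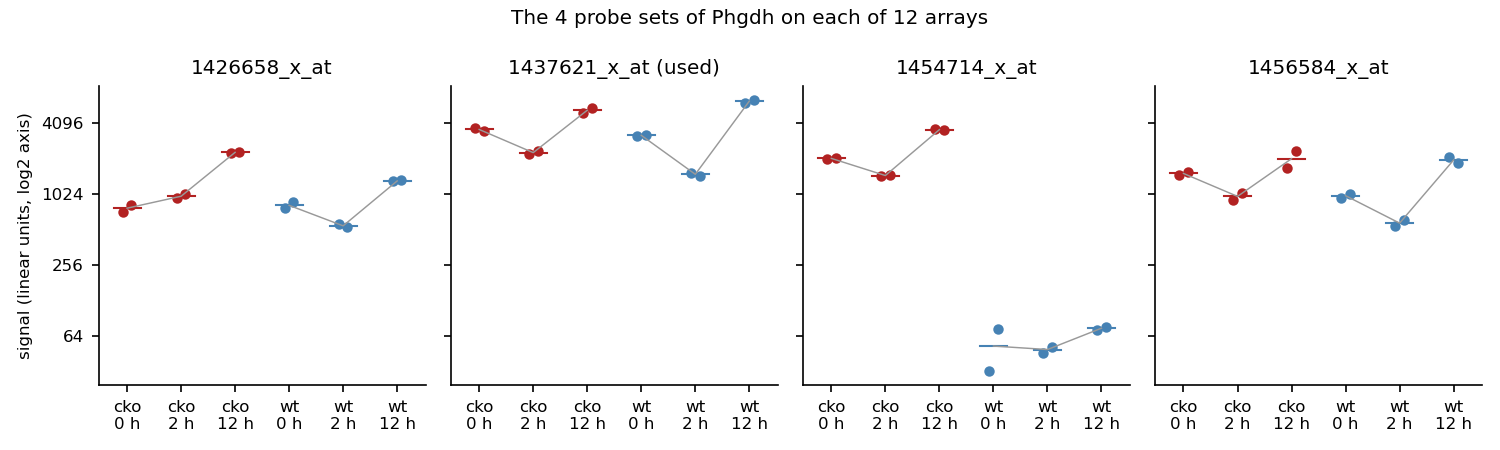
Signal of the 4 tested Phgdh probe sets (vertical axis, linear units on a log2 axis) on each array by genotype and hours with anti-IgM (horizontal axis: 0, 2 and 12 h), cko in red left of wild type in blue; points are arrays, short lines are group means and grey lines join the means. Probe set 1454714_x_at lies at 1456 to 3598 in cko and 32.2 to 76.8 in wild type, and the genotypes lie far closer on the other 3.

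The share of a probe set's signal in that of the gene's brightest probe set also differed between the sides of the control-probe division. Of the 12 other tested probe sets, 5 had a higher share on all 6 arrays with a high actin ratio, 2 (both of Shmt1) had a lower share on all of them, and 5 overlapped. The share of 1419254_at for Mthfd2 was 44 to 69.4% on the high side and 7.61 to 40% on the low side. For Psat1 1451064_a_at it was 36.1 to 55.1% and 14.7 to 22.5%, and for Mthfd1 1415917_at 20.4 to 30.3% and 11.4 to 18.5%. For Phgdh 1426658_x_at it was 36.5 to 45.8% and 19.6 to 26.6%, and for Shmt2 1426423_at 8.23 to 10.3% and 4.50 to 7.60%. The probe positions along the transcripts were not used here.

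**Figure D5:**
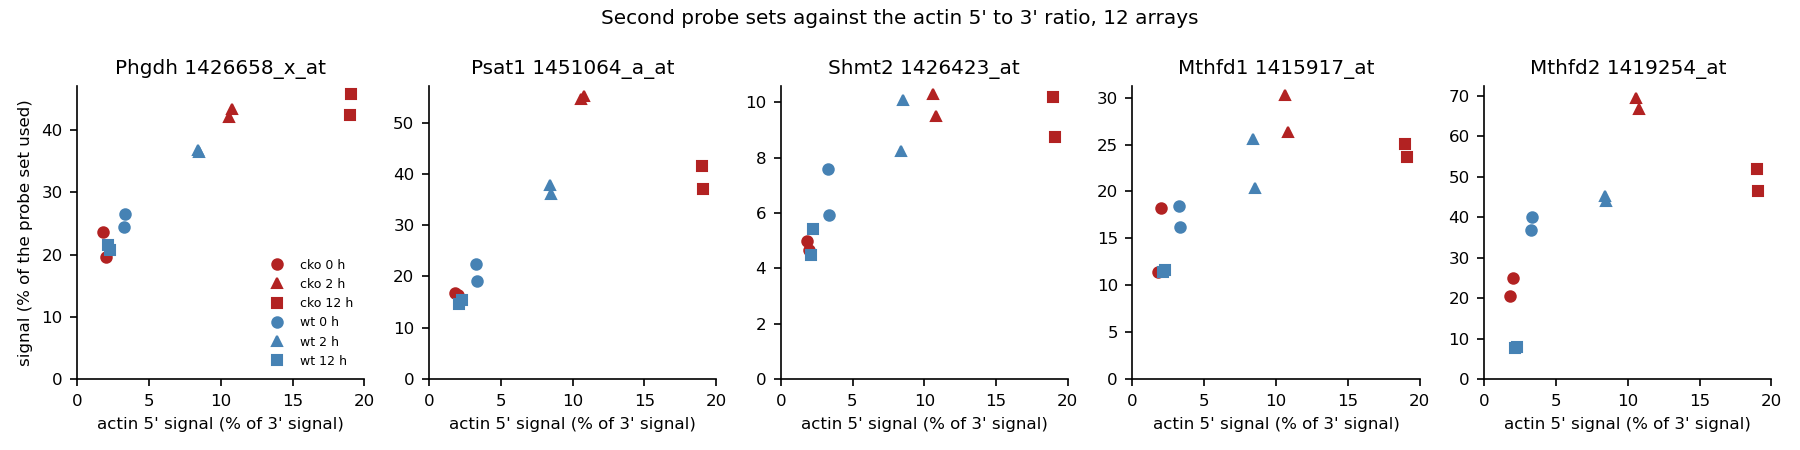
Signal of 5 probe sets as a percentage of the probe set used for the gene (vertical axis) against the actin 5′ signal as a percentage of its 3′ signal (horizontal axis), 1 point for each of 12 arrays. All arrays at an actin ratio of 8.41% or more lie above all arrays at 3.33% or less in each panel.

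Atf4 and Myc, which encode known regulators of these genes, moved too. Atf4 signals were 2066 and 2184, 7095 and 7219, and 4915 and 4928 in cko at 0, 2 and 12 h, against 1455 and 1339, 4452 and 4329, and 1149 and 1136 in wild type. Atf4 was higher in cko by 0.60 ± 0.06, 0.70 ± 0.06 and 2.09 ± 0.06 at 0, 2 and 12 h. Myc was higher in cko at 0 h (0.75 ± 0.12) and at 12 h (1.27 ± 0.12), and at 2 h its difference of 0.31 ± 0.12 was not called. Both peaked at 2 h in both genotypes, as did Mthfd2 and the brightest Shmt1 probe set. Other members did not. On the brightest probe sets Phgdh was lowest at 2 h, and Psat1, Shmt2 and Mthfd1 were highest at 12 h, in both genotypes. The 2 h rises and the 12 h genotype differences of Atf4 and Myc cross the control-probe division. Any part of Atf4 or Myc in the changes of the 8 genes was not tested.

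Across the 12 arrays, which share 6 groups and a division by control probe sets, Shmt1 and Mthfd2 followed each other most closely (Pearson r = 0.948 on log2 signals). Shmt2 and Mthfd1 gave r = 0.914, and Phgdh gave r = -0.37 with Shmt1 and -0.25 with Mthfd2. Among 8136 other genes whose group means spanned at least 1 on the log2 scale, those most like Mthfd2 were Exosc1 (r = 0.991), Mrfap1 (0.988) and Srp19 (0.986). Those most like Shmt1 were Utp4 (0.983), Sar1b (0.982) and Polr1b (0.975). Those most like Psph were Sf3b5 (0.973), Psmc1 (0.970) and Tdp1 (0.962).

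Among other genes of folate and one-carbon metabolism, calls between the genotypes went both ways. Of 31 listed, 22 were tested, and 3 were higher and 7 lower in cko at 0 h, against 16.3% and 16% of all genes. Atic, which completes purine synthesis (1.30 ± 0.09), Mthfsd (0.64 ± 0.15) and Gcsh of the glycine cleavage system (0.33 ± 0.07) were higher. Mthfd2l, which encodes a relative of MTHFD2 (-1.91 ± 0.34), the gamma-glutamyl hydrolase gene Ggh (-0.74 ± 0.19) and the purine gene Gart (-0.61 ± 0.13) were lower. The list median was 0.00, against 0.57 for the 8 enzymes and 0.02 for all genes.

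At 2 h 6 of the 22 were higher in cko and 4 lower, against 12.8% and 15.7% of all genes. Mmachc (0.88 ± 0.15), the methionine synthase reductase gene Mtrr (0.81 ± 0.08) and the folate carrier gene Slc19a1 (0.64 ± 0.11) were higher. Atic (-1.38 ± 0.09), the methionine synthase gene Mtr (-0.85 ± 0.30) and Ggh (-0.56 ± 0.19) were lower. At 12 h 2 were higher and 6 lower, against 21.4% and 29.9% of all genes. Mtfmt (1.0 ± 0.19) and Dld (0.63 ± 0.17) were the 2 higher, and the 6 lower had Mthfd2l (-1.73 ± 0.34), Gcsh (-0.49 ± 0.07) and Ahcy (-0.45 ± 0.10) in front. The list medians were -0.03 and -0.05, against 0.55 and 0.62 for the 8 enzymes.

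At 2 h against 0 h 9 of the 22 rose and 4 fell in cko, against 23.8% and 39.2% of all genes, and 8 rose and 3 fell in wild type, against 23.5% and 36.2%. Over all genes 63% were called in either direction in cko and 59.7% in wild type. Slc19a1 rose by 2.52 ± 0.11 in cko and 1.54 ± 0.11 in wild type, and Dld by 2.59 ± 0.17 and 2.22 ± 0.17. In wild type Atic rose by 1.75 ± 0.09. Mthfsd fell by 1.54 ± 0.15 in cko and 1.49 ± 0.15 in wild type. At 12 h against 0 h 10 rose and 3 fell in cko, against 25.9% and 33.1% of all genes, and 10 rose and 1 fell in wild type, against 24.8% and 23.1%. In wild type Atic (2.46 ± 0.09) and Gcsh (1.63 ± 0.07) were among the rises. In the test of genotype by time Atic, which was higher in cko at 0 h and lower in cko at 2 h, gave -2.68 ± 0.12 at 2 h and -1.68 ± 0.12 at 12 h.

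Genes that carry serine and glycine or draw on them were also listed. Of 29 listed, 23 were tested, and 3 were higher and 2 lower in cko at 0 h, against 16.3% and 16% of all genes. At 2 h 5 were higher and 3 lower, against 12.8% and 15.7%, and at 12 h 5 were higher and 7 lower, against 21.4% and 29.9%. The neutral amino acid transporter gene Slc1a4 was higher in cko at each time, by 0.81 ± 0.24, 1.91 ± 0.24 and 0.76 ± 0.24. The haem synthesis gene Alas1 was lower in cko at 0 h (-1.21 ± 0.24) and 2 h (-0.92 ± 0.24). At 12 h the glutathione synthesis gene Gclc (1.06 ± 0.07) and the glycyl-tRNA synthetase gene Gars (0.59 ± 0.06) were higher in cko. Gss (-1.48 ± 0.13), Serinc1 (-1.15 ± 0.06) and Serinc3 (-1.15 ± 0.10) were lower. After anti-IgM Gclc rose at 2 h by 3.39 ± 0.07 in cko and 3.38 ± 0.07 in wild type, and Serinc1 fell by 2.47 ± 0.06 in cko and 2.41 ± 0.06 in wild type.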

How the data were processed

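RNA of 12 samples was read on Affymetrix Mouse Genome 430 2.0 arrays after 2 rounds of amplification, per the labels. The authors deposited a linear intensity for each probe set on each array, made with GCOS 1.4, per the submitters' processing notes. With 2% trimmed at each end, every array had a mean of 250, and the medians were 29.1 to 40.3. How probes were summarised is not stated. Of 45101 probe sets, 34945 carry a single symbol and 99.4% of these matched RefSeq by Entrez identifier.

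Signals were taken as log2(signal + 16) with no further normalization. A filter kept the 21906 probe sets whose mean was above the 40th percentile (5.14), and the brightest stood for its gene. The 12190 genes were fitted with limma 3.58.1 in R 4.3.3, as 6 group means with an intensity trend (6 residual and 7.29 prior degrees of freedom), in 11 two-sided contrasts, adjusted by Benjamini-Hochberg. The procedure was tested on simulated data. Probe sets were also fitted alone.

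The 8 genes, the lists, the rules and the tests were chosen with earlier results of these data known. The 20 tested member probe sets are described, with Zfx, Atf4 and Myc. In each contrast the rule for the 2 other lists takes up to 3 rises and 3 falls among called genes, of which some are printed. For likeness the 3 members with the widest range are taken. Alternatives were quantile normalization, median scaling, other pseudocounts and filters, no trend, a fit of the compared groups only, a block for the replicate number, the mean over each gene's probe sets, a term for the control-probe division and each array left out. The mean without 1 Phgdh probe set was added after seeing the data. Same-numbered samples did not deviate together (r -0.01 to 0.01 over 15 pairs), so the numbers were not used as pairs. Promoter sequences are RefSeq's.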

Additional observations from a re-analysis of the deposited data

Results flagged for a closer look

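The responses to anti-IgM of 3 genes at 2 h and 5 genes at 12 h differed between the genotypes by the test of the interaction itself, with limma's adjusted p under 0.05. At 2 h the cko response minus the wild-type response was 0.44 for Phgdh, -0.64 for Mthfd1 and -0.81 for Mthfd2 on the log2 scale. At 12 h it was -0.42 for Phgdh, -0.51 for Psat1, 2.25 for Psph, -0.86 for Shmt2 and -0.55 for Mthfd1. Both arrays of each group are printed with each gene above. These are values of the brightest probe sets. Another probe set was called the opposite way for Mthfd2 at 2 h (0.59) and for Phgdh (0.87), Psat1 (1.19) and Mthfd1 (0.79) at 12 h. One was called the same way for Phgdh at 2 h (0.89) and 12 h (-0.60) and Shmt2 at 12 h (-0.64). Some genes were called on another probe set alone, Mthfd2 at 12 h (3.35), Psat1 at 2 h (0.97) and Shmt1 at 2 h (0.75) and 12 h (-1.11). With probe sets averaged, Psat1 at 12 h turned (0.34), and the calls on Phgdh, Mthfd1 and Mthfd2 at 2 h and Phgdh, Shmt2 and Mthfd1 at 12 h were lost. The 12 h values cross the control-probe division, whose part in them was not tested, and at 2 h both genotypes cross it. Across all genes 20.4% were called in this way at 2 h and 43.2% at 12 h.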

How the results depend on the processing

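With 2 arrays a group and no detection calls used, dim signals such as Shmt1 at 0 h in wild type are the least certain. Values are log2 differences, and where no cause is named the cause was not tested. Leaving out 1 array at a time, the number of the 8 genes called ranged from 4 to 6 for cko against wild type at 0 h, 3 to 5 at 2 h and 5 to 7 at 12 h. It ranged from 6 to 8 and 7 to 8 in cko at 2 h and 12 h against 0 h and 6 to 7 in wild type at both, stayed at 7 in cko and 6 in wild type between 2 h and 12 h, and ranged from 2 to 4 and 4 to 6 for genotype by time at 2 h and 12 h. A group with a lone array was assumed to vary like the others. With probe sets averaged per gene, genotype by time gave 1 call at 2 h and 3 calls at 12 h (3 also without 1 Phgdh probe set), against 3 and 5. In that setting Mthfd1 (0.031) and Psat1 (0.34) at 12 h by genotype, Psat1 in cko between 2 h and 12 h (-0.17) and Shmt2 between genotypes at 12 h (0.022) turned, with and without that probe set. Phgdh turned between genotypes at 12 h (1.47, and 0.19 without it) and in genotype by 12 h (0.048). Under median scaling Phgdh turned between genotypes at 12 h (0.061) and in genotype by 12 h (0.006), and Mthfd1l in cko at 2 h (0.01). That scaling moved the median of all genes to 0.09 at 12 h between genotypes, against -0.17, to 0.00 and 0.01 at 2 h in wild type and cko, against -0.24 and -0.32, and to 0.16 at 12 h in cko, against -0.20. The additive fit with a term for the control-probe division gives 1 genotype effect over the 3 times, time effects shared by the genotypes and no interaction. Its shared effects had the opposite sign to 12 h between genotypes for Phgdh (0.38) and Shmt2 (0.37). They also did so for Mthfd1l in cko at 12 h (-0.10), Psph at 2 h in both genotypes (-1.29) and Psph in wild type between 2 h and 12 h (1.77). They are not values for a single time or genotype. This fit called 3061 genes between genotypes, against 6258 at 12 h, and 4708 at 2 h, against 7277 in wild type and 7684 in cko. With the mean of probe sets 1594 genes were called in genotype by 2 h, against 2491. Shmt1 by genotype was 0.73 at 12 h and 0.66 at 2 h without wild-type 0 h replicate 2, and -1.05 and -1.12 without replicate 1. With the replicate number as a block, 2 calls were gained, Mthfd1 in cko at 2 h (0.28, adjusted p = 0.032) and Shmt1 between genotypes at 2 h (1.03, adjusted p = 0.034), and no other call of the 88 changed.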
